A study of Mus musculus with 6 samples.

Results

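The 10 genes described here carry out MHC class I antigen presentation in the mouse: H2-K1, H2-D1, B2m, Tap1, Tap2, Tapbp, Psmb8, Psmb9, Psmb10 and Nlrc5. They were taken by gene symbol from tables of 23282 gene rows, and all 10 were found, each on 1 row. Ink4a-/- mouse astrocytes are brain glial cells that lack the tumor suppressor locus Ink4a/Arf, and both groups carried this deletion. Control astrocytes (3 libraries) received pcDNA3.1-puro, the vector without insert, and JAG1-overexpressing astrocytes (3 libraries) received pcDNA3.1-JAG1-puro, a plasmid for the Notch ligand JAG1. The comparison asks how the transcripts of these genes differed between cells that overexpress JAG1 and cells that do not. The labels name a single astrocyte line for all 6 libraries, give its source as brain, and give the controls the genotype WT, which was read here as without added JAG1. The labels give no age, sex, strain or time after transfection. Nor do they say if replicate libraries stem from 1 transfection or several, so that p-values measure only the spread between these libraries, which may be technical.

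MHC class I molecules show peptides from inside the cell to CD8 T cells. The proteasome cuts proteins into peptides, and interferon-gamma exchanges its catalytic subunits for the immunoproteasome subunits encoded by Psmb8, Psmb9 and Psmb10. The TAP1-TAP2 transporter moves the peptides into the endoplasmic reticulum, where tapasin, encoded by Tapbp, holds an empty class I molecule at the transporter until a peptide is bound. The class I molecule itself is a heavy chain, H2-K or H2-D, paired with the light chain beta2-microglobulin (B2m). NLRC5 is the transactivator of these genes, and the factor IRF1 acts with it downstream of interferon-gamma. Cultured astrocytes are known to raise class I genes when they meet interferon.

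The promoters are shown first because the class I heavy chain promoters carry a known arrangement of regulatory elements, and because H2-K1, which was called, and H2-D1, which was not, can be compared base by base there. RefSeq promoter windows on GRCm38.p6, from 250 bases before to 50 bases after a listed transcription start, were held for 8 of the 10 genes, with no entry for Tap2 and Nlrc5. The 4 sequences below run 5' to 3' on the strand of the gene, from 250 bases before to 25 bases after the start. Capitals mark matches on either strand to 4 motifs: GGGNNTTCC (kappaB, bound by NF-kappaB), GAANNGAAA (an IRF dimer site), TGACG (core of the X2 box) and CCAAT (core of the Y box). Matches to different motifs shared no base in these sequences. H2-K1 lies at chr17:34000323-34000597 on the minus strand, H2-D1 at chr17:35262844-35263118 on the plus strand, B2m at chr2:122147437-122147711 on the plus strand and Tap1 at chr17:34187306-34187580 on the plus strand.
H2-K1: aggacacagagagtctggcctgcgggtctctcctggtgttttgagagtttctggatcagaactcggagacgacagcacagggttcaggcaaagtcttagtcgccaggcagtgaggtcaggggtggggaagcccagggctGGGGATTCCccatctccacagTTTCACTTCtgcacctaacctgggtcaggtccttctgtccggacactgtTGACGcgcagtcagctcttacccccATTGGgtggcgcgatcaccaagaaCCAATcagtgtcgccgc
H2-D1: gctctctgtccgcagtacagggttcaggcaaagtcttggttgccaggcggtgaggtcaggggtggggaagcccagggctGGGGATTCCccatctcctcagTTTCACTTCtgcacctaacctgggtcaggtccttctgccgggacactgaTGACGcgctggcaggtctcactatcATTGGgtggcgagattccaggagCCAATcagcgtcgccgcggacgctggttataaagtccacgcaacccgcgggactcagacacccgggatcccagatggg
B2m: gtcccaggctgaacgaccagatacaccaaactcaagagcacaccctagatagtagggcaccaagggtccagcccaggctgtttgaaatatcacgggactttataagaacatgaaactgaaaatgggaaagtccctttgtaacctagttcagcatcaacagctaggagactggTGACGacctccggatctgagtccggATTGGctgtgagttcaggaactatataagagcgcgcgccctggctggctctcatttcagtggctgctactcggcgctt
Tap1: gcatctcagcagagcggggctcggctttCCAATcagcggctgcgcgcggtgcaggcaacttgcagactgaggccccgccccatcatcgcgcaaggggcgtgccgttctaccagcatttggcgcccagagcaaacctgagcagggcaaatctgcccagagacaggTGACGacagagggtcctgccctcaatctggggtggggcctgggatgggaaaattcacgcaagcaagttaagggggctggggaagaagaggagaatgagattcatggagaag

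The H2-K1 and H2-D1 windows held the same elements in the same order: a kappaB match, an IRF dimer match on the opposite strand, 1 X2 core and 2 Y cores. From first base to first base, the kappaB match preceded the IRF match by 21 bases in both genes, the IRF match preceded the X2 core by 49 bases in both, and the X2 core preceded the first Y core by 25 bases in both. The step from the first to the second Y core was 24 bases in H2-K1 and 23 bases in H2-D1. Relative to the listed start, the elements were shifted between the genes. The kappaB match began at -111 in H2-K1 and -171 in H2-D1, and the second Y core at 9, past the start, in H2-K1 and -53 in H2-D1. For H2-K1, 1 of 2 listed windows was used, and its start lies inside the span of the gene. The windows were 88.3% identical over 239 aligned bases. Among 32851 RefSeq promoter windows of 300 bases, 5.82% held the kappaB letters, 7.52% the IRF dimer letters, 20.8% the X2 core and 37.4% the Y core, and 17 windows (0.0517%) held all 4. Those 17 included 2 windows of H2-K1 and 1 each of H2-D1, H2-Q4, H2-Q7 and H2-M2, all class I heavy chain genes. The window of B2m held 2 X2 cores, the second of them past the part shown, and 1 Y core, without a match to the IRF or kappaB letters used here. Those letters do not cover other spacings or lengths, such as gaaactgaaa and gggaaagtccc in the B2m part shown. A lack of such elements in B2m was therefore not read from this. Tap1 and Psmb9 are transcribed away from each other, and their windows shared 275 bases, with an X2 core and a Y core in the shared part. Matches are descriptions of letters and not of bound sites, and the motifs were chosen with these sequences in view. The strain and H2 haplotype of the cells were not given, so that the alleles of the cells may differ from the reference shown.

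The libraries held 14341634 to 20489062 counts, and the 3' end method used counts about 1 read per transcript whatever its length, so that CPM, counts relative to the TMM-normalized library size, were also used to set genes side by side. Jag1 had 182, 201 and 214 counts in the control libraries and 304, 197 and 227 in the JAG1-overexpressing libraries. Its CPM were 8.99, 10.8 and 11.2 against 15.2, 13.6 and 13.8, which did not overlap, with a log2 fold change of 0.46 (SE 0.11, adjusted p = 0.00446). These counts do not tell plasmid transcripts from those of the cell's own gene. Cdkn2a, the gene at the deleted locus, had 0 to 5 counts. Of the 12 astrocyte markers, Gfap and Aqp4 were at 0 counts in all 6 libraries and Slc1a2 and Slc1a3 had at most 2, and of the 8 tested, 0 were higher and 7 were lower, whereas Vim was not called. Over all tested genes 27.4% were higher and 27.7% lower, shares that also stand beside the other marker counts below. S100b and Aldoc passed the filter on low counts through the control libraries, and the call of S100b could be lost with 1 library left out (adjusted p up to 0.0693). The 7 lower markers were Aldh1l1, S100b, Sox9, Gja1, Glul, Aldoc and Nes. Sox9 fell most, from 177 to 186 CPM in control to 16.6 to 19.1 CPM in JAG1-overexpressing libraries (log2 fold change -3.33). Gja1 was at 116 to 188 and 87.0 to 104 CPM, and Nes at 83.7 to 92.8 and 40.7 to 50.2 CPM. The labelled cell type thus lacked 2 defining markers in both groups, while other markers of the list, such as Sox9, Gja1, Glul and Nes, were present in both. Immune cells carry high class I levels, but their markers were scarce: T and NK cell markers had at most 1 count, Ptprc had at most 4 counts and C1qa, C1qb and C1qc at most 2. The 14 microglia and macrophage markers summed to 15.6 to 16.9 CPM in control and 14.8 to 16.4 CPM in JAG1-overexpressing libraries, with 4 tested, of which Cx3cr1 was higher and Tmem119 lower. The call of Cx3cr1 could be lost with 1 library left out (adjusted p up to 0.174). Cx3cr1 passed the filter on low counts through the JAG1-overexpressing libraries, where it was high, and Tmem119 through the control libraries. Of the neuron markers 1 of 6 was tested (Tubb3, lower), of endothelial cells and pericytes 1 of 6 (Pdgfrb, lower), of fibroblasts 4 of 5 (Col1a2 higher, Col1a1 and Dcn lower) and of the oligodendrocyte lineage 2 of 7, with 0 called, and the part of these cell types in the class I values was not tested. Dcn passed the filter on low counts through the control libraries, where it was high. In bulk RNA, fewer cells of a type cannot be told from less RNA per cell.

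Of the 10 genes, 8 passed the filter on low counts, and Psmb8 and Nlrc5 did not. At an adjusted p under 0.05 from edgeR's quasi-likelihood test, 1 was higher in JAG1-overexpressing astrocytes (H2-K1), 3 were lower (Tap1, Tapbp and Psmb10) and 4 were not called. The same test called 27.4% of 11712 genes higher and 27.7% lower, 55.1% in either direction, so that a share of 4 in 8 was near the background and nothing particular to these genes was read from it. The groups did not overlap for 5 of the 8 genes, with the JAG1-overexpressing libraries above for 1 and below for 4, against 31.1% and 30.9% of all tested genes and 62.0% in either direction. The median log2 fold change of the 8 genes was -0.18, and that of all tested genes was 0.0039. With a fold limit of 1.5 besides the adjusted p, 26.5% of all genes were called, and of the 10 genes only Tap1. The counts for lists of other pathway genes given below stand against the same shares of 27.4% and 27.7%, and nothing particular to a list was read from them.

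**Figure D1:**
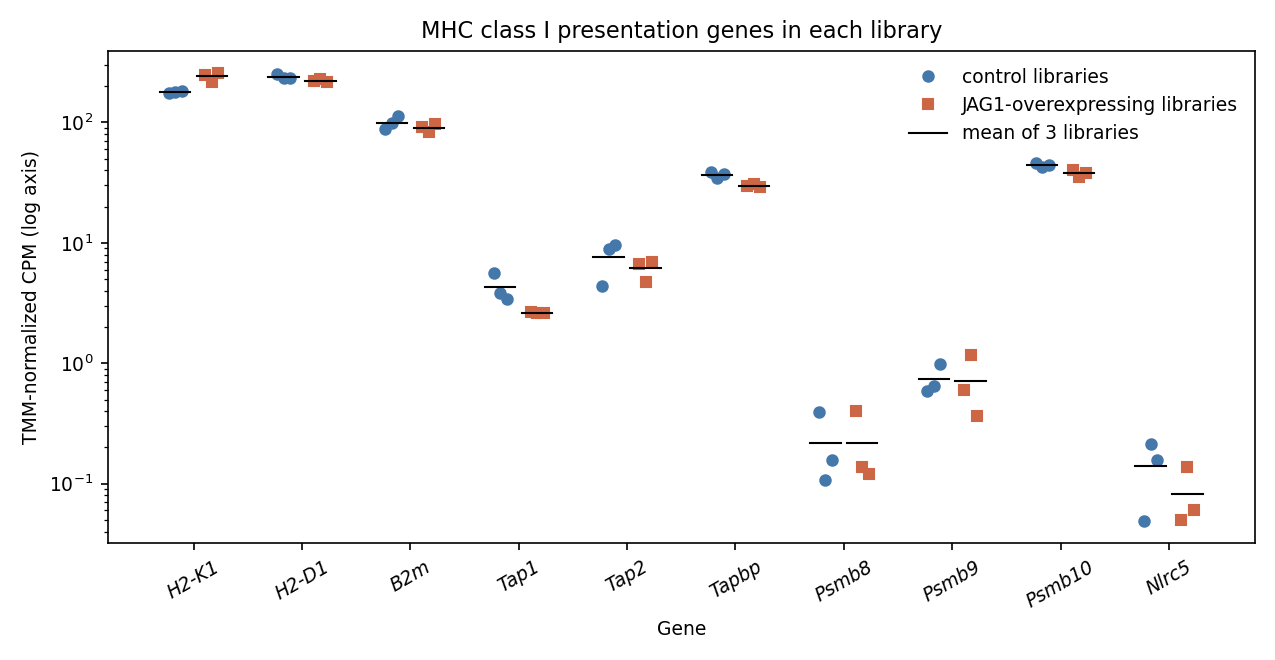
TMM-normalized CPM (log axis) of the 10 genes in each of the 3 control libraries (circles) and the 3 JAG1-overexpressing libraries (squares), with bars at the means. H2-K1 is above the controls in all 3 JAG1-overexpressing libraries, Tap1, Tapbp, Psmb10 and H2-D1 are below, and Psmb8 and Nlrc5 lie near the level of 3 counts (0.148 to 0.206 CPM).

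Of the heavy chains, H2-K1 was higher in JAG1-overexpressing astrocytes and H2-D1 was not called. H2-K1 (chr17:33996012-34000619) had 3543, 3332 and 3521 counts in the control libraries and 5010, 3170 and 4233 counts in the JAG1-overexpressing libraries. These were 175, 179 and 184 CPM in control and 250, 218 and 257 CPM in JAG1-overexpressing libraries. The lowest JAG1-overexpressing library thus lay above the highest control. The means were 179 ± 4.63 and 242 ± 20.7 CPM (SD, n = 3 each), a 1.35-fold rise with a log2 fold change of 0.43 (SE 0.064, adjusted p = 0.00017). Leaving out any 1 library kept the call of H2-K1, at log2 fold changes of 0.39 to 0.50.

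H2-D1 (chr17:35263094-35267497) had 5076, 4392 and 4466 counts in control and 4400, 3371 and 3597 counts in JAG1-overexpressing libraries. Its levels were 251, 236 and 234 CPM in control and 219, 232 and 218 CPM in JAG1-overexpressing libraries. The groups did not overlap, with JAG1-overexpressing libraries below, but the nearest libraries were less than 2 CPM apart. The log2 fold change of -0.10 (SE 0.052, 95% interval -0.22 to 0.0086) did not pass the test (adjusted p = 0.106).

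The counts of H2-K1 were 69.8% to 78.8% of those of H2-D1 in the control libraries and 94.0% to 118% in the JAG1-overexpressing libraries. By these counts H2-D1 exceeded H2-K1 in all 3 control libraries, and H2-K1 exceeded H2-D1 in 2 of the 3 JAG1-overexpressing libraries, all but replicate 2. The log2 ratio differed by 0.53 between the groups, and the exact two-sided permutation p was 0.1, the smallest that 3 against 3 libraries allow. This ratio was chosen after the values of both genes were seen. The 2 genes together gave 415 to 426 CPM in control and 450 to 476 CPM in JAG1-overexpressing libraries, which did not overlap. Both genes are near copies of other class I genes, and counts can be split between them: of the distinct 50-base words in the last 300 bases of their coding transcripts, 7.70% of those of H2-K1 occur in H2-D1 and 5.35% of those of H2-D1 occur in H2-K1. With any other gene, 9.54% of the words of H2-K1 and 13.5% of those of H2-D1 were shared. These are shares of words over all listed transcripts and not of reads. The H2 haplotype of the cells, which bears on how reads of the 2 genes match the reference and so on which of them appears the more abundant, and how the authors treated reads with several matches were not given in the sources used here.

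B2m (chr2:122147687-122153082), the light chain that every classical class I molecule needs, was not called. It had 1774, 1830 and 2177 counts in control and 1842, 1201 and 1607 counts in JAG1-overexpressing libraries. Its levels were 87.6, 98.2 and 114 CPM in control and 91.8, 82.6 and 97.6 CPM in JAG1-overexpressing libraries, which overlap. The log2 fold change was -0.14 (SE 0.094, 95% interval -0.35 to 0.068, adjusted p = 0.231). Without control replicate 1, the lowest of the controls, it was -0.23 with an adjusted p of 0.0217. H2-K1 counts were 162% to 200% of B2m counts in control and 263% to 272% in JAG1-overexpressing libraries, another ratio chosen after the values were seen, and the groups did not overlap.

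The 34 other class I and class I-like heavy chain genes were mostly low, with 10 at 0 counts in all libraries and 16 at 3 or fewer in every library, these included, and 12 passed the filter on low counts. Of these 12, H2-K2, H2-M3 and Hfe were higher, Procr was lower and 8 were not called, and their median log2 fold change was 0.22. H2-K2, a class I gene next to H2-K1, had 5, 5 and 16 counts in control and 31, 23 and 33 in JAG1-overexpressing libraries (log2 fold change 1.91, SE 0.41, adjusted p = 0.00229). Of its 3' words, 12.7% occur in other genes, with its transcripts not limited to coding ones. Whether H2-K2 makes a protein was not examined. H2-M3, which presents formylated peptides, had 22, 26 and 26 counts in control and 92, 69 and 65 in JAG1-overexpressing libraries. That is 1.28 ± 0.169 against 4.43 ± 0.423 CPM (SD, n = 3 each), a log2 fold change of 1.79 (SE 0.20, adjusted p = 1.62e-05). Hfe, which binds the transferrin receptor and presents no peptide, had 5, 5 and 2 counts in control and 12, 9 and 12 in JAG1-overexpressing libraries (log2 fold change 1.61, adjusted p = 0.0125), and its call was lost under DESeq2 (adjusted p = 0.0559). Hfe and H2-K2 passed the filter on low counts through the JAG1-overexpressing libraries, where they were high. Procr, the endothelial protein C receptor, shares the class I fold but serves coagulation, and fell from 44.1 ± 0.704 to 9.13 ± 1.70 CPM (SD, n = 3 each; log2 fold change -2.27, SE 0.12, adjusted p = 2.96e-08). Of the genes of this list that were called, H2-K2 and H2-M3 thus belong to the H2 complex, and both rose from low levels. H2-T9 and H2-T22 had nearly the same counts in each library (97, 82, 91, 116, 69 and 95 against 97, 83, 92, 116, 69 and 95). They do not amount to separate observations, although the numbers given for this list were not reduced for that.

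Of the transport and loading genes, Tap1 and Tapbp were lower in JAG1-overexpressing astrocytes, and Tap2 was not called. Tap1 (chr17:34187556-34197225) had 114, 72 and 65 counts in control and 53, 38 and 43 counts in JAG1-overexpressing libraries. Its levels were 5.63, 3.87 and 3.40 CPM in control and 2.64, 2.62 and 2.61 CPM in JAG1-overexpressing libraries. Every JAG1-overexpressing library lay below every control, and control replicate 1 stood above the other controls. The fall was 1.64-fold (log2 fold change -0.72, SE 0.21, adjusted p = 0.0145), and without control replicate 1 the log2 fold change was -0.47 with an adjusted p of 0.0741, so that the call rested on that library.

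Tap2 (chr17:34204479-34216321), the partner of Tap1 in the transporter, had 88, 167 and 183 counts in control and 135, 69 and 115 counts in JAG1-overexpressing libraries. Its levels were 4.35, 8.97 and 9.57 CPM in control and 6.73, 4.75 and 6.99 CPM in JAG1-overexpressing libraries. Here control replicate 1 was the lowest of all 6 libraries, whereas for Tap1 it was the highest. The log2 fold change was -0.29 (SE 0.26, 95% interval -0.87 to 0.28, adjusted p = 0.359), and without control replicate 1 it was -0.58 with an adjusted p of 0.00500. Tap1 counts were 130% of Tap2 counts in control replicate 1 and 35.5% to 43.1% in the other controls, against 37.4% to 55.1% in JAG1-overexpressing libraries. Of the 3' words of Tap1, 4.92% occur in Tap2, which lies downstream of it.

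Tapbp (chr17:33919478-33929290) had 783, 640 and 719 counts in control and 596, 450 and 477 counts in JAG1-overexpressing libraries. Its levels were 38.7, 34.4 and 37.6 CPM in control and 29.7, 31.0 and 29.0 CPM in JAG1-overexpressing libraries. The groups did not overlap, and the fall was 1.24-fold (log2 fold change -0.30, SE 0.075, adjusted p = 0.00518). Leaving out any 1 library kept the call, at log2 fold changes of -0.35 to -0.27. Tapbp was more abundant than either Tap transcript in every library. Of its 3' words, 5.07% occur in the neighbouring Zbtb22.

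Of 24 genes of peptide loading and trimming beside these, all tested, 6 were higher, 9 were lower and 9 were not called, with a median log2 fold change of -0.02. The largest fall was that of Tapbpl, which encodes the peptide editor TAPBPR. It had 329, 300 and 296 counts in control and 131, 108 and 108 counts in JAG1-overexpressing libraries, or 15.9 ± 0.406 against 6.84 ± 0.512 CPM (SD, n = 3 each). The groups were far apart, with a log2 fold change of -1.23 (SE 0.10, adjusted p = 1.64e-06). Npepps, an aminopeptidase of the cytosol, fell with a log2 fold change of -0.44 (adjusted p = 2.88e-05), and Erap1, which trims peptides in the endoplasmic reticulum, with -0.38 (adjusted p = 0.0325, lost without control replicate 2 or JAG1-overexpressing replicate 1 or 3, and under DESeq2 at 0.0569). The largest rises were those of Lnpep, an aminopeptidase of endosomes (0.77, adjusted p = 0.00384), of Ganab, a glucosidase of glycoprotein folding (0.41, adjusted p = 0.000506), and of Thop1, a peptidase of the cytosol (0.39, adjusted p = 0.00727), all as log2 fold changes. Ganab lies on chromosome 19, whose median log2 fold change was 0.61 over 422 tested genes, 313 of them higher, and the part of its chromosome in its rise was not tested. The general chaperones of the loading complex were abundant and moved little: Pdia3 and Canx were lower by log2 fold changes of -0.19 and -0.14 (adjusted p = 0.0144 and 0.0249), and Calr was at -0.01 (adjusted p = 0.922).

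**Figure D2:**
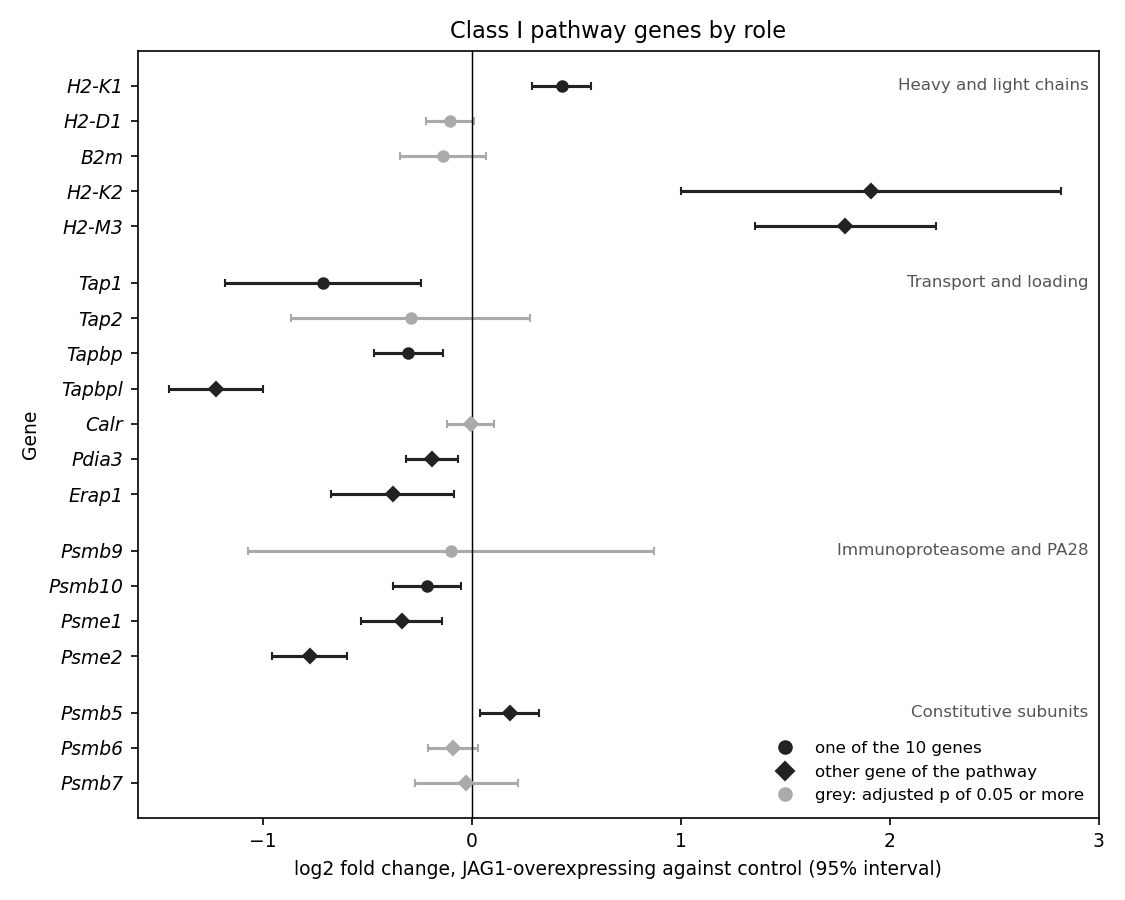
Log2 fold change of JAG1-overexpressing against control libraries with its 95% interval for genes of the class I pathway, grouped by role. Circles are genes of the 10, diamonds other genes of the pathway, and grey marks an adjusted p of 0.05 or more. H2-K1, H2-K2 and H2-M3 are to the right of 0, and Tap1, Tapbp, Tapbpl, Psmb10, Psme1 and Psme2 to the left.

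Of the immunoproteasome subunits, Psmb10 was slightly lower, Psmb9 was not called and Psmb8 was too low to be tested. Psmb10 (chr8:105935728-105938392), the subunit with trypsin-like activity, had 936, 788 and 843 counts in control and 815, 514 and 627 counts in JAG1-overexpressing libraries. Its levels were 46.2, 42.3 and 44.1 CPM in control and 40.6, 35.4 and 38.1 CPM in JAG1-overexpressing libraries. The groups did not overlap, and the fall was 1.16-fold (log2 fold change -0.22, SE 0.074, adjusted p = 0.0291). The call was lost without control replicate 1 (adjusted p = 0.0628), JAG1-overexpressing replicate 2 (0.109) or JAG1-overexpressing replicate 3 (0.0737).

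Psmb9 (chr17:34182030-34187330) had 12, 12 and 19 counts in control and 12, 17 and 6 counts in JAG1-overexpressing libraries. The groups overlapped, with a log2 fold change of -0.10 whose 95% interval ran from -1.07 to 0.87 (adjusted p = 0.860), so that a change of that size was not detectable at this depth. Psmb8 (chr17:34198195-34201454) had 8, 2 and 3 counts in control and 8, 2 and 2 counts in JAG1-overexpressing libraries. In both groups replicate 1 was the highest. Psmb8 was at or under 3 counts in 4 of the 6 libraries, and with no filter on low counts its adjusted p was 0.966. Psmb10 was therefore the only immunoproteasome subunit gene with a sizeable level in these cells.

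The constitutive subunits that occupy the same places in the proteasome core were more abundant than their inducible counterparts. Psmb8 counts were 0.0278% to 0.102% of Psmb5 counts in control and 0.0256% to 0.0864% in JAG1-overexpressing libraries. Psmb9 counts were 0.147% to 0.253% of Psmb6 counts in control and 0.0951% to 0.337% in JAG1-overexpressing libraries. Psmb10 counts were 9.16% to 12.1% of Psmb7 counts in control and 8.30% to 10.2% in JAG1-overexpressing libraries. In each of the 3 pairs the groups overlapped, and exact two-sided permutation tests of the log2 ratios gave p = 0.7, 0.9 and 0.4 (0.9 each after Benjamini-Hochberg adjustment over the 3 pairs). Summed over the pairs, the inducible counts were 3.46% to 4.03% of the constitutive counts in control and 2.96% to 3.35% in JAG1-overexpressing libraries. Here the groups did not overlap (exact two-sided permutation p = 0.1, the smallest possible). Nearly all of the inducible sum came from Psmb10, with 936 of 956 counts in control replicate 1, so that the sum says little of Psmb8 and Psmb9.

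**Figure D3:**
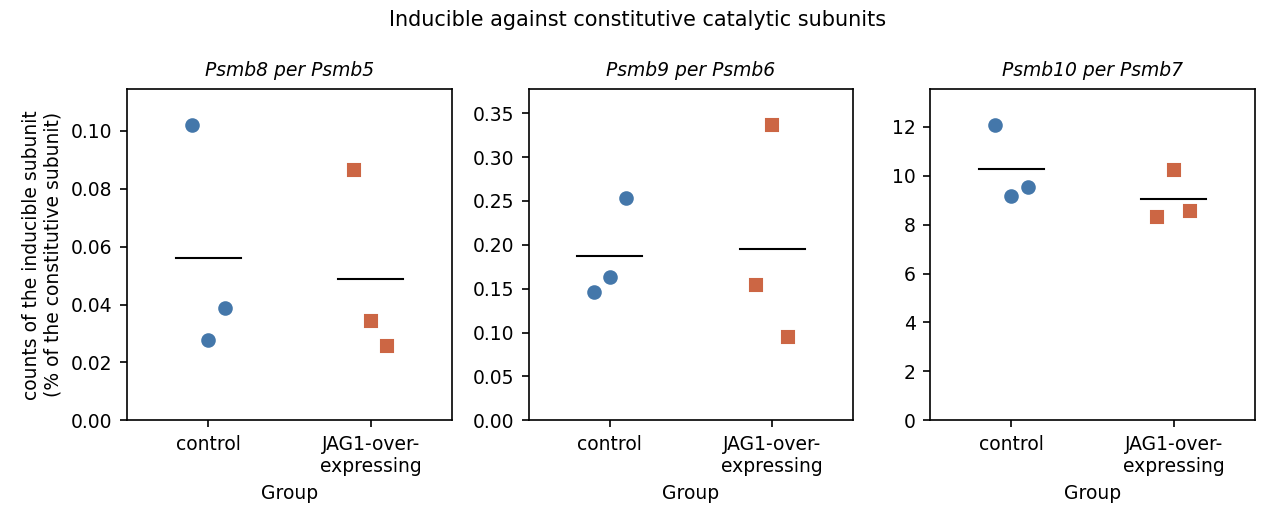
Counts of each inducible catalytic subunit as a percentage of the constitutive subunit of the same place, in each of the 3 control libraries (circles) and 3 JAG1-overexpressing libraries (squares), with bars at the means and axes from 0. The groups overlap in all 3 pairs, and the axis of the Psmb10 pair reaches far higher than those of the Psmb8 and Psmb9 pairs.

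Of the constitutive subunits, Psmb5 was called, at 386, 387 and 406 CPM in control and 461, 401 and 474 CPM in JAG1-overexpressing libraries (log2 fold change 0.18, SE 0.064, adjusted p = 0.0326). That call was lost without control replicate 2 or JAG1-overexpressing replicate 1 or 3, and under upper-quartile normalization (adjusted p = 0.0536) or on the deposited log2 values (0.0511), and 51.4% of the 3' words of Psmb5 occur in Gm3375. Psmb6 (-0.09) and Psmb7 (-0.03) were not called. Of 21 other tested core subunits, assembly factors and activators, 5 were higher, 6 were lower and 10 were not called, with a median log2 fold change of 0.02. The largest falls were those of Psme2, Psmg1 and Psme1, and the largest rises those of Psmg4 (0.25), Psma5 (0.24) and Psmg3 (0.23). Psme1 and Psme2 encode the PA28 activator, which interferon also induces. Psme2 had 602, 503 and 585 counts in control and 341, 243 and 284 counts in JAG1-overexpressing libraries, a 1.71-fold fall (log2 fold change -0.78, SE 0.082, adjusted p = 1.11e-05). Psme1 had 393, 338 and 375 counts in control and 317, 203 and 254 counts in JAG1-overexpressing libraries (log2 fold change -0.34, SE 0.088, adjusted p = 0.00738). Both PA28 subunit genes thus fell, but 58.8% of the 3' words of Psme2 and 15.7% of those of Psme1 occur in other genes. Psmg1, a chaperone of core assembly, fell with a log2 fold change of -0.38 (adjusted p = 0.00432). Of the 22 genes of the 19S regulatory particle, 17 were not called, Psmd9 (0.30), Adrm1 (0.23) and Psmd12 (0.23) were higher and Psmd10 (-0.28) and Psmd1 (-0.16) were lower.

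Nlrc5 (chr8:94434335-94527272), the transactivator of class I genes, had 1, 4 and 3 counts in control and 1, 2 and 1 counts in JAG1-overexpressing libraries. It was above 3 counts in 1 library of 6, so that no difference was detectable at this depth. Ciita, its counterpart for class II genes, had at most 1 count, and the interferon genes Ifng and Ifnb1 were at 0 counts in all libraries. The interferon genes and Nlrc5 were thus at or near the limit of detection in both groups.

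Of 37 listed factors and signalling genes upstream of class I genes, 32 were tested: 9 were higher, 5 were lower and 18 were not called, with a median log2 fold change of 0.0041. The largest fall was that of Irf1, an interferon-induced transcription factor that can bind sites of the IRF kind. Irf1 had 1769, 1640 and 1822 counts in control and 609, 416 and 503 counts in JAG1-overexpressing libraries. Its levels were 87.4, 88.0 and 95.3 CPM in control and 30.4, 28.6 and 30.6 CPM in JAG1-overexpressing libraries. The groups were widely separated, with a 3.02-fold fall (log2 fold change -1.59, SE 0.067, adjusted p = 6.64e-09). Nfkbia, the inhibitor of NF-kappaB, fell with a log2 fold change of -0.89 (adjusted p = 3.36e-07), and Ifngr2, the signalling chain of the interferon-gamma receptor, with -0.67 (adjusted p = 0.000107). The other chain of that receptor, Ifngr1, was higher (0.35, adjusted p = 0.00391). The largest rises were those of the kinase gene Jak2 (1.29, adjusted p = 2.49e-07), of Stat3 (0.88, adjusted p = 2.92e-06) and of the NF-kappaB subunit gene Nfkb2 (0.87, adjusted p = 1.48e-06). Jak2 and Nfkb2 lie on chromosome 19, with its median of 0.61 given above, and the part of their chromosome in these rises was not tested.

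**Figure D4:**
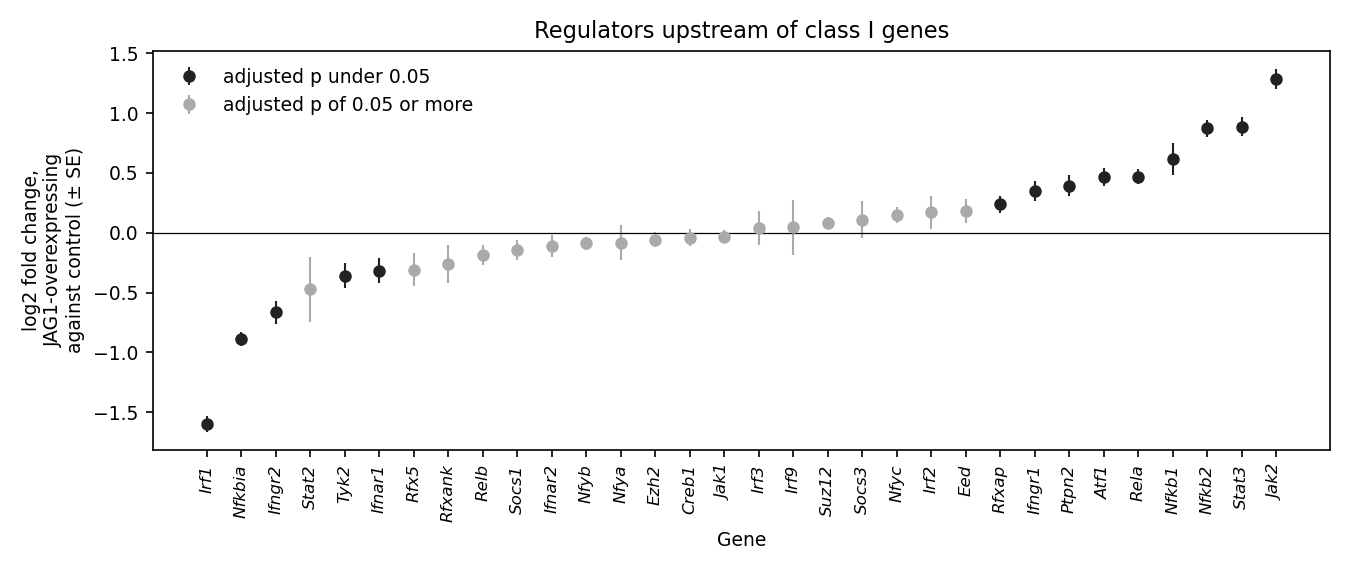
Log2 fold change of JAG1-overexpressing against control libraries (± SE) for the 32 tested factors and signalling genes upstream of class I genes, in order of size, with black points at an adjusted p under 0.05. Irf1 is lowest at -1.59 and Jak2 highest at 1.29.

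Interferon-induced genes are the wider set that responds with class I genes. Of 38 listed, 37 had a row and 16 were tested, of which 5 were higher, 6 were lower and 5 were not called, with a median log2 fold change of -0.25, beside 27.4% higher and 27.7% lower over all tested genes. Gbp4, a guanylate-binding protein gene, rose with a log2 fold change of 1.40 (adjusted p = 0.00155), Bst2, which encodes tetherin, with 1.34 (adjusted p = 1.69e-06), and Ifit2 with 0.71 (adjusted p = 0.00956). Ifit2 lies on chromosome 19, and the part of its chromosome in its rise was not tested. Gbp2, of the same family as Gbp4, had 19, 15 and 20 counts in control and 1 count in each JAG1-overexpressing library (adjusted p = 9.18e-05). Parp14 (-0.96, adjusted p = 0.0103, lost without control replicate 1 at 0.0501) and the RNA sensor gene Ddx58 (-0.89, adjusted p = 0.000808) were also lower. Gbp2 passed the filter on low counts through the control libraries, where it was high. The guanylate-binding protein genes Gbp2 and Gbp4 were called in opposite directions, and nothing further was read from this.

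Of the 10 genes, 7 lie on chromosome 17, 2 on chromosome 8 and 1 on chromosome 2. The median log2 fold changes of all tested genes there were 0.0030, -0.011 and -0.0044, against 0.61 on chromosome 19 and -0.53 on chromosome 15. A whole-chromosome median does not describe shorter stretches, and the part of chromosome position in the values of the 10 genes was not tested. In the stretch of chromosome 17 from Tapbp to H2-D1 (chr17:33919478-35267497, chosen after the values were seen), 53 genes were tested. Of these, 18 were higher, 12 were lower and 23 were not called, with a median log2 fold change of 0.13 and 56.6% called against 55.1% of all genes. Called genes of one direction often followed each other: those from Rgl2 to Rxrb, H2-K2 and H2-K1 among them, were all higher, and those from Brd2 to Gpsm3, H2-DMb1 and Tap1 among them, were all lower. Whether such runs exceed those of other stretches was not tested.

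**Figure D5:**
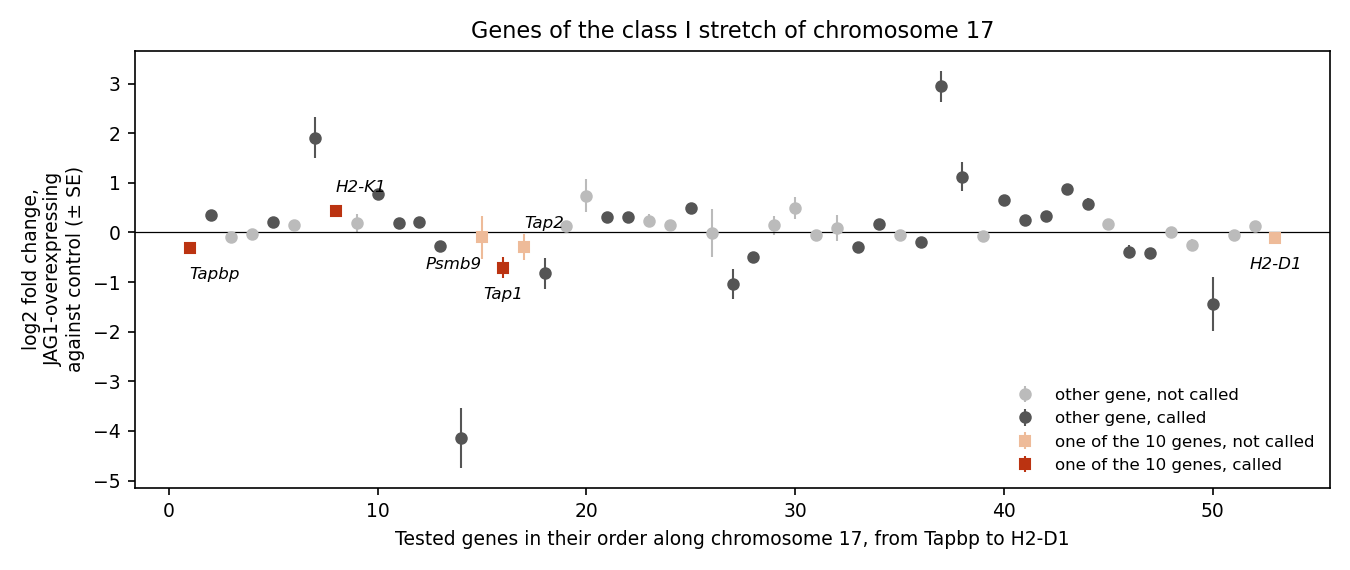
Log2 fold change (± SE) of the 53 tested genes from Tapbp to H2-D1 in their order along chromosome 17, with squares for those of the 10 genes that were tested and darker points where the adjusted p was under 0.05. Called genes of one direction often follow each other, with H2-K1 among higher and Tap1 among lower genes, and the lowest point is H2-DMb1, which had 1 count in each JAG1-overexpressing library.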

How the data were processed

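RNA of Ink4a-/- mouse astrocytes was measured in 6 libraries (3 control, 3 JAG1-overexpressing), made with the QuantSeq 3' mRNA kit from total RNA isolated with Trizol. The authors deposited, per library, raw read counts for 23282 gene rows beside their own normalized values on the log2 scale. The submitters' processing notes name Bowtie2, bedtools, edgeR, GRCm38 and mm10, without roles. The read length, annotation and handling of reads with several matches were not given in the sources used here. Results rest on the raw counts, and the deposited log2 values served 1 alternative.

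Symbols were matched to RefSeq on GRCm38.p6, the build of all coordinates (22059 rows by symbol, 1071 by a synonym). In R 4.3.3, edgeR 4.0.16 was applied to all genes: 11712 genes passed filterByExpr (minimum count 10), followed by TMM normalization, the quasi-likelihood test and Benjamini-Hochberg adjustment at 0.05 over all tested genes. Intervals are 95% intervals of the fit. A count of 3, or 0.148 to 0.206 CPM by library, served as limit of detection, for counting error only. The common biological coefficient of variation was 0.0770. Pairs of libraries of a group differed by more than counting error (chi-square per degree of freedom of 3.71 to 15.4). Ratios of counts were compared by exact permutation tests. The 3' words are 50-base words of the last 300 bases of coding transcripts of GENCODE M21, except for H2-K2, whose transcripts of any type were taken.

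The 10 genes and the lists of pathway genes and markers of 7 cell types were chosen with earlier results of these data known, and 1 gene of the upstream list is not reported here. Named from each list were up to 3 called genes with the largest rise and up to 3 with the largest fall, with the constitutive subunits, Jag1 and genes of small counts. H2-T9, H2-T22, Pdia3, Canx, Calr, Ifngr1, Ciita, Ifng and Ifnb1 were added with their values known. Alternatives were DESeq2 1.42.0, limma-voom (limma 3.58.1), library size alone, upper-quartile normalization, other filters, a fold limit of 1.5, a replicate block and leaving out each library.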

Additional observations from a re-analysis of the deposited data

How the results depend on the processing

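The calls of the 8 tested genes were the same under DESeq2, limma-voom, the deposited log2 values, upper-quartile normalization, scaling by library size, no filter, and a minimum mean of 10 counts. The replicate block changed no call of a tested gene of the 10. Over all genes, the block gave 3380 higher and 3331 lower, against 3211 and 3247 without it. Libraries of the same number correlated in their deviations from the group means by 0.148, 0.0614 and 0.119, and each correlated best with its own number, a hint from the data and not the design, so that the numbers were not taken as pairs.

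With the fold limit of 1.5, 0 of the 10 genes were higher and 1 lower. That limit left 1 higher and 1 lower in peptide loading and trimming, 0 higher among constitutive subunits, 0 higher and 1 lower among other core subunits and activators, 0 and 0 in the 19S particle, 4 and 3 upstream of class I genes, 3 and 3 among interferon-induced genes, and 1 lower in class II presentation.

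With each library left out, the log2 fold change of Psmb9 ran from -0.59 to 0.20, being above 0 without control replicate 3 (0.15), JAG1-overexpressing replicate 1 (0.015) or replicate 3 (0.20). Lower calls ran from 1 to 2 among other class I chains (2 without control replicate 3), from 5 to 10 in peptide loading (5 without control replicate 2), from 1 to 4 in the 19S particle (4 without control replicate 3, 1 without control replicate 2 or JAG1-overexpressing replicate 1 or 3), from 3 to 6 upstream (3 without JAG1-overexpressing replicate 2), from 1 to 2 in class II presentation and from 2 to 4 among ligands of NK cell and checkpoint receptors (2 without JAG1-overexpressing replicate 3). Higher calls ran from 0 to 1 among constitutive subunits and from 2 to 4 among other core subunits and activators, against 5 with all libraries. Psma5 lost its call without control replicate 1 or 2 or JAG1-overexpressing replicate 1 or 3, Psmg4 without control replicate 3 or JAG1-overexpressing replicate 2, and Psmd1 without control replicate 1 or 2 or JAG1-overexpressing replicate 1 or 3. The cause of these moves was not tested. Depth limits Psmb8, Psmb9 and Nlrc5, with at most 19 counts in a library.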

Other observations

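Transcripts of MHC class II presentation were scarce: of 14 listed genes, 4 were at 0 counts in all libraries, 8, these included, had 3 or fewer in every library, and 4 were tested. Of these, Ifi30 (log2 fold change 0.64, adjusted p = 0.000384) and Lgmn (0.60, adjusted p = 0.000198), a thiol reductase and a protease of endosomes and lysosomes, were higher in JAG1-overexpressing astrocytes. Ctsl, another lysosomal protease, was lower (-0.25, adjusted p = 0.0208), a call lost without control replicate 2 or 3 or JAG1-overexpressing replicate 1 or 2. H2-DMb1, a chain of the class II peptide editor, had 33, 20 and 14 counts in control and 1 count in each JAG1-overexpressing library (adjusted p = 0.000147). It passed the filter on low counts through the control libraries, where it was high.

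Surface ligands read by NK cells and T cells beside class I were also listed: of 10 tested, 3 were higher, 4 were lower and 3 were not called, beside 27.4% higher and 27.7% lower over all tested genes, with a median log2 fold change of -0.18. H60b, a ligand of the activating NK receptor NKG2D, had 175, 177 and 143 counts in control and 7, 4 and 6 counts in JAG1-overexpressing libraries. The groups did not overlap, with a log2 fold change of -4.65 (SE 0.23, adjusted p = 2.23e-08). H60b passed the filter on low counts through the control libraries, where it was high. Pvrl2, which encodes nectin-2, fell from 20.9 ± 1.14 to 9.36 ± 1.39 CPM (SD, n = 3 each; log2 fold change -1.15, adjusted p = 6.29e-06), whereas the related Pvr rose (0.48, adjusted p = 0.00233). Clec2d was lower (-0.89, adjusted p = 0.0162, lost without control replicate 2 or 3 or JAG1-overexpressing replicate 3, and under DESeq2 at 0.0577). Lgals9, which encodes galectin-9, rose from 3.67 ± 0.627 to 10.7 ± 0.819 CPM (SD, n = 3 each; log2 fold change 1.54, adjusted p = 4.72e-06). Cd274, which encodes PD-L1, was higher (0.97, adjusted p = 0.0142), a call lost without JAG1-overexpressing replicate 2, and lies on chromosome 19, whose median was 0.61 and whose part in it was not tested.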
